A study of Mus musculus with 10 samples.

Results

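The baseline transcriptome of control-transfected C2C12 myoblasts was described from the samples that received a scrambled sequence. C2C12 is a myoblast line derived from mouse skeletal muscle. A gene was taken as measured when the scanner software marked at least 1 of its probes as well above background in all 4 scrambled files, control spots left out, and for a name with several such probes the brightest on average was kept. This gave 11345 genes of the 34650 names on the array, of which 39 had no unmarked spot in at least 1 file, and the other 11306 were described. Of these, 8973 carried a RefSeq symbol (8969 different symbols, 8704 of them protein-coding, 115 long non-coding RNA genes), and 2333 kept only the name given in the files.

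The 4 scrambled samples were C2C12 cells kept in high-glucose medium with serum, split before confluence, transfected with a scrambled sequence at 150 nM with a cationic lipid and collected after 72 h, at an estimated transfection efficiency of 60% per the labels. The other 6 samples of the series received a mimic of miR-27a-3p at the same dose and time. No untransfected cells were analysed here, so the levels are those of cells that also went through lipid transfection. The line is a clone, and all samples come from it.

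Replicates 1 and 3 shared an array position, as did replicates 2 and 4, and the 2 files of a position differed in scan. The files of a position shared 21 and 64 spots marked as non-uniform, against 0 for each of the 4 pairs from different positions. Across the 11306 genes the 2 files of a position correlated at 0.991 and 0.992 (Spearman), and files of different positions at 0.952 to 0.958. The files were therefore averaged within a position to scrambled array 1 (replicates 1 and 3) and scrambled array 2 (replicates 2 and 4), and every error below is an SD over n = 2 arrays. The labels describe independent transfections, and nothing in the headers explains why a single position appears under 2 sample names, so this SD may hold technical and biological spread in unknown parts. No difference was tested, because all samples belong to 1 group.

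A level is the log2 processed signal less the 75th percentile over the 14154 probes that passed the detection rule, averaged over both arrays, and its percentile is the rank among the 11306 genes, with 100 as the highest. In each scrambled file 27.9% to 32.35% of the 59305 non-control spots were well above background, no spot was saturated, and the slope of the spike-in controls was 0.968 to 1.02. Probe signals are not calibrated between genes: for the 2188 genes with more than 1 measured probe, the brightest and the dimmest differed by a median of 1.45 on the log2 scale (quartiles 0.62 and 2.46), or 22.5 percentile points. A rank is therefore that of a probe. Values of different genes or isoforms set side by side below describe probe signals, and do not give the relative amounts of the RNAs. Between the arrays the percentile of a gene moved by a median of 4.9 points, and by 13.7 points or less for 9 in 10 genes.

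Myoblasts are committed precursors of skeletal muscle. They are held in the lineage by MyoD and Myf5, basic helix-loop-helix transcription factors that bind E-boxes, and they divide until growth factors fall, when myogenin rises, the cell cycle stops, and the cells fuse into multinucleated myotubes that build sarcomeres. C2C12 cells are widely used to follow these steps in culture.

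H19, an imprinted long non-coding RNA, had the highest level of all 11306 genes over both arrays together, with 61061 and 47783 on array 1 and 64651 and 54201 on array 2. Its level was 4.80 ± 0.28. On array 1 alone, where it was at 4.61, Fau, Aldoa and Tuba1b were above it at 4.68, 4.68 and 4.67. The next named genes were Fau, which encodes a ubiquitin-like protein fused to ribosomal protein S30, at 4.74 ± 0.09, the glycolytic aldolase Aldoa at 4.71 ± 0.04, cytoplasmic beta-actin Actb at 4.66 ± 0.19 and alpha-tubulin Tuba1b at 4.66 ± 0.02. Neighbours in the order of these 5 genes did not differ beyond the larger of their SDs, and the first and the 25th named gene were 0.67 apart on the log2 scale.

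Among the 25 highest named genes were further parts of the translation machinery (Rpl41, Rpl10, Rplp2, Rpl10a, Rpl37a and Rps10) and Tpt1, which was listed with the translation factors. Also among them were the glycolytic enzyme Gapdh, the prolyl isomerase Ppia, the lectin Lgals1, the iron store Fth1 and the ATP synthase subunit Atp5g2. Others were the mitochondrially encoded COX1, the non-muscle myosin light chain Myl6, the stress-response transcription factor Atf4 and the IGF-binding protein Igfbp5. The ribosomal RNA Rn28s1 and the transcribed pseudogenes Gm5523 and Gm12070 were there too. Of the 100 highest genes, 41 had no RefSeq symbol, 17 encoded cytosolic ribosomal proteins, 6 were annotated as pseudogenes and 4 lay on the mitochondrial genome. Probes for pseudogenes can take up RNA of the parent gene, so their own level is uncertain. The 13 mitochondrial messages all passed the detection rule, from COX1 at 4.25 ± 0.40 (percentile 99.8) and CYTB at 4.05 ± 0.32 (percentile 99.6) down to ND6, the one encoded on the other strand, at -0.59 ± 0.14 (percentile 63.8). The probe named ND3 is mapped to chromosome 1 in the files, so its level is uncertain.

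**Figure D1:**
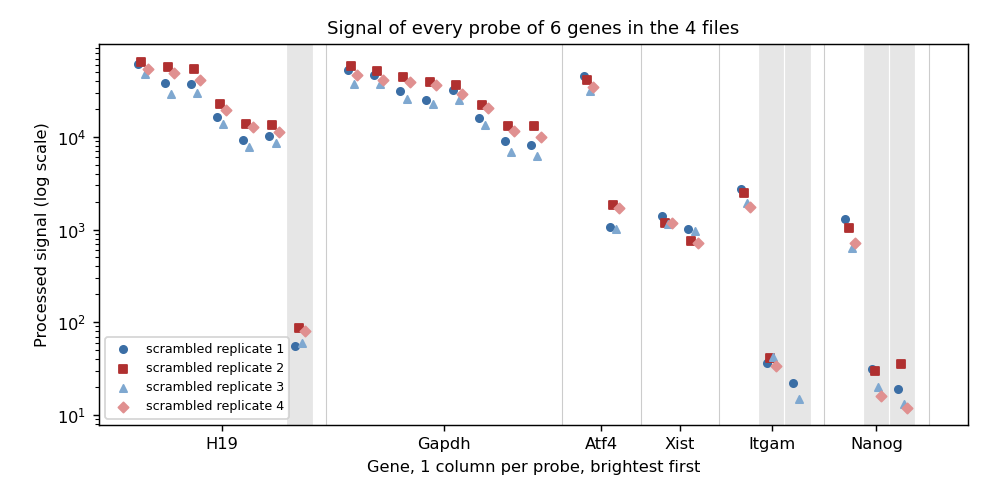
Processed signal on a log scale of every probe of 6 genes in the 4 scrambled files, 1 column per probe with the brightest first; grey columns mark probes that were not well above background in all 4 files. The 7 H19 probes run from 47783 to 64651 at the brightest down to 56 to 87 at the dimmest, and Itgam and Nanog have 1 bright probe each.

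How far a level rests on the probe was plain for H19, which had 7 probes. Its brightest probe lay at chromosome 7, 149761492 to 149761551 on mm9, 6 probes were well above background in all 4 files, and the dimmest of these gave 8540 to 13293. The 7th gave 56 to 87 and was well above background in 1 file. All 8 Gapdh probes were measured, from 6282 to 13095 at the dimmest and 37600 to 57801 at the brightest, although the files map the brightest to chromosome 7 and most of the others to chromosome 6. Atf4 had a probe at 31209 to 45389 and a second at 1011 to 1852, so its place among the highest genes holds for 1 of its 2 probes.

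**Figure D2:**
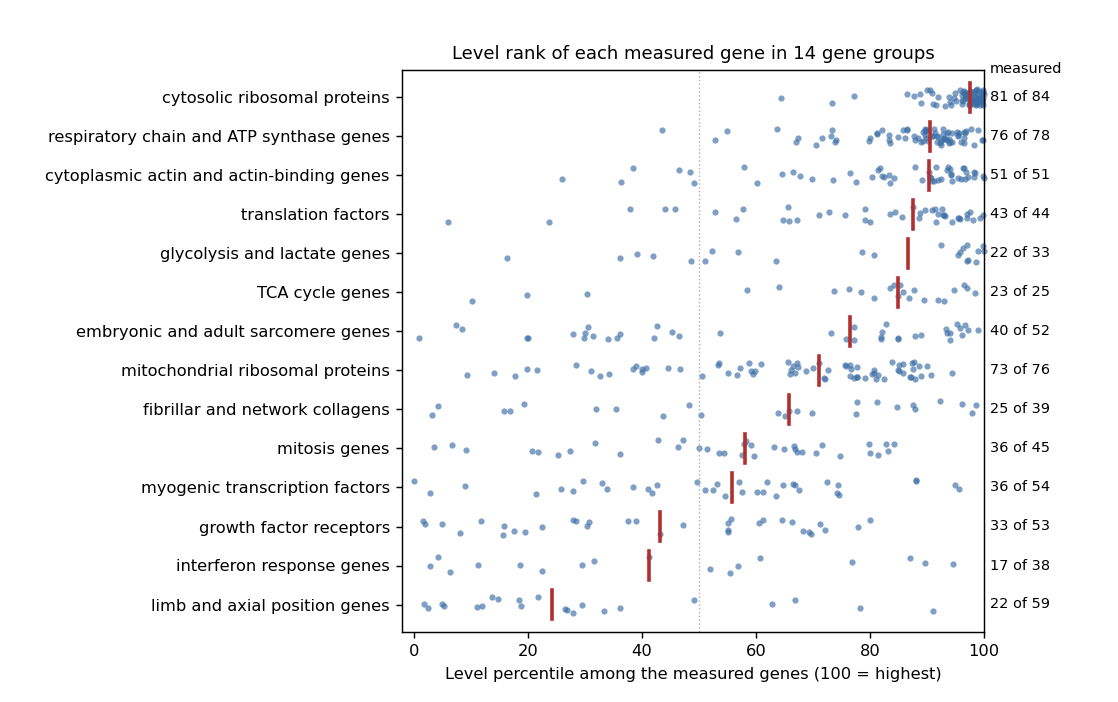
Level percentile (100 = highest of the 11306 genes) of each measured gene in 14 gene groups; blue points are genes, red bars the median of the measured genes, and the right column counts measured genes of those on the array. Ribosomal proteins crowd at the right end (median 97.6) and limb and axial position genes lie mostly in the lower part (median 24.2).

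Of the 22562 RefSeq symbols on the array, 39.8% were measured, and 43.1% of the protein-coding ones. Of the measured symbols, 8.09% lay in the top 10% of all 11306 genes, 23.2% in the top 25% and 24.6% in the bottom 25%. These shares are the background for the counts below.

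The highest group was translation. Of 84 cytosolic ribosomal protein genes on the array, 81 were measured, with a median percentile of 97.6 (97.4 on array 1 and 97.7 on array 2), and 74 of them were in the top 10%. Fau, Rpl41 and Rpl10 (percentiles 100, 99.9 and 99.9) led, and Rps21 (percentile 64.4) was lowest. The 3 that were not measured were Rpl3l, Rpl39l and Rpl10l, copies of Rpl3, Rpl39 and Rpl10 known from muscle or testis, of which Rpl3l is the form of mature muscle. Translation factors, in a list that also held Tpt1, had a median of 87.5 (43 of 44 measured, 18 in the top 10%). Tpt1, Eif1 and Eif3c (percentiles 99.9, 99.3 and 98.1) led, and Eif5a2 (percentile 5.9) was lowest. The muscle and neuron form of elongation factor 1 alpha, Eef1a2, was at 23.7 and the general form Eef1a1 at 91.6. Eif5b, which joins the ribosomal subunits, was the only factor of the list not measured, at 13.2 to 32.8 in the 4 files. Mitochondrial ribosomal proteins were nearly all measured (73 of 76), at a median of 71.1, with 2 in the top 10%. Mrpl33, Mrpl52 and Mrpl51 (percentiles 94.5, 90.8 and 90) were highest and Mrpl19 (percentile 9.4) lowest. Mrpl1 and Mrpl35 were not well above background, and Mrpl38 passed the rule but lacked an unmarked spot.

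The 4 lists of energy metabolism had median percentiles of 71.6 to 90.6. Respiratory chain and ATP synthase genes had a median percentile of 90.6 (76 of 78 measured, 39 in the top 10%, none in the bottom 25%), led by Atp5g2, Cox6a1 and Cox8a (percentiles 99.8, 99.6 and 98.9). The lowest was Cox7a1, the heart and skeletal muscle form of a complex IV subunit, with 1047, 651, 555 and 373 in replicates 1 to 4 (percentile 43.5), and its general counterpart Cox7a2 was at 89.8. The other muscle forms, Cox6a2 and Cox8b, were at 81.3 and 67.4, and their counterparts Cox6a1 and Cox8a at 99.6 and 98.9. Cox4i2 and Cox6b2, the lung and testis forms, were not measured. TCA cycle genes had a median of 84.9 (23 of 25), with Mdh2 and Cs (percentiles 98.5 and 97.1) among the highest and Dlat (percentile 10.2) lowest. The cytosolic enzymes Aco1 and Idh1 were not measured, while Idh2, the mitochondrial counterpart of the latter, stood at 94.7.

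Glycolysis and lactate genes had a median of 86.6 (22 of 33 measured), with 11 in the top 10% and 13 in the top 25%. Aldoa, Gapdh and Pgk1 (percentiles 100, 99.9 and 99) were highest. Most steps were measured on several isoforms. The hexokinases Hk1 and Hk2 were at 92.5 and 39.2, and the phosphofructokinases Pfkm, the muscle form, Pfkl and Pfkp at 80.8, 63.5 and 56.8. Of the enolases, the muscle form Eno3 was at 97.3, the general Eno1 at 97 and the neuronal Eno2 at 36.2. The general phosphoglycerate mutase Pgam1 was at 95.9 and the muscle form Pgam2 at 48.6, and the lactate dehydrogenase subunits Ldha and Ldhb were at 98.7 and 42. Aldoc (percentile 16.4), a brain form of aldolase, was lowest. Liver, sperm and leukocyte isoforms (Pklr, Gapdhs, Pgk2, Ldhc and Hk3) were among those not measured, and the insulin-regulated glucose transporter Slc2a4 was well above background in 3 of 4 files. Fatty acid oxidation genes had a median of 71.6 (23 of 29), from Acaa2, Etfb and Acsl4 (percentiles 93.8, 92.1 and 89.9) to Cpt1c (percentile 1). Carnitine palmitoyltransferase, which admits long-chain fatty acids to the mitochondrion, was measured as the liver form Cpt1a at 50.6, while the muscle form Cpt1b was well above background in 1 file.

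All 51 cytoplasmic actin and actin-binding genes on the array were measured, the only list of over 20 genes of which this was so. Their median percentile was 90.3, though 88.6 on array 1 and 89.1 on array 2 taken separately, and 26 of 51 were in the top 10%. Actb, Myl6 and Flna (percentiles 100, 99.8 and 98.4) led and Myh10 (percentile 26), a non-muscle myosin heavy chain, was lowest. Actin is encoded by a series of tissue isoforms. Actb stood at 100 and the other cytoplasmic actin, Actg1, at 98.2. The cardiac Actc1, which is also the form of embryonic skeletal muscle, had 26415 and 22393 on array 1 and 26290 and 24632 on array 2 (percentile 98.9). The vascular smooth muscle Acta2 was at 98.9. The adult skeletal form Acta1 gave 9368, 10459, 7737 and 8667 in replicates 1 to 4 (percentile 93.3). The 5 actins named here were thus in the top 10% of the measured genes.

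Actin genes are known targets of serum response factor, which binds a 10-base element called the CArG box. Only exact matches to CCWWWWWWGG, where W is A or T, were counted as a CArG box here. The 160 bases before the RefSeq start of 3 actin genes measured here are shown, from the gene's own strand of GRCm38.p6 and with the CArG box in capitals, because all 3 carry the element. Acta1 lies on the minus strand at chr8:123894776-123894935, Actc1 on the minus strand at chr2:114052876-114053035 and Actg1 on the minus strand at chr11:120348496-120348655.
Acta1: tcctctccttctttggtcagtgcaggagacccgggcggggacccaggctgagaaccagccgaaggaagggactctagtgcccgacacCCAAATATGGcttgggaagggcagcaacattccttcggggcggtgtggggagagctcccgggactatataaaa
Actc1: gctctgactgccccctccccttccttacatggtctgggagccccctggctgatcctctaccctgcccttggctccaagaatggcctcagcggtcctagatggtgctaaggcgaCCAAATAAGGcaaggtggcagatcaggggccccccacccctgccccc
Actg1: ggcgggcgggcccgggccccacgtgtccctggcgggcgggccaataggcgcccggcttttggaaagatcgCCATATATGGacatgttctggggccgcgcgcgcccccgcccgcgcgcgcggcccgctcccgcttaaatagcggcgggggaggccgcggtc
The box begins 73, 47 and 90 bases before the listed start. Among protein-coding genes with a promoter in the table, 1.40% held a CArG box in the 250 bases before the first listed start (17491 genes, 1 promoter each; the element reads the same on both strands). Of the actin and actin-binding genes, 49 had an entry and 6 held it: Actg1, Arpc4, Myl9, Vcl, Cnn2 and Lima1. Of the measured sarcomere genes, 31 had an entry and 5 held it: Myh4, Acta1, Actc1, Myom1 and Ldb3. Holding the element went with no single level: these 11 genes ran from percentile 98.9 for Actc1 to 29.9 for Myom1. Actb had no entry, and Acta2 had one that held no exact match to this pattern in those 250 bases. Elements that depart from the pattern were not searched for, so their absence was not shown. The matches describe letters and not binding.

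Tubulins and intermediate filaments had a median of 87.3 (24 of 28 measured, 11 in the top 10%), led by Tuba1b, Tubb2a and Nes (percentiles 100, 97.5 and 97); Tubb2a is a beta-tubulin and Nes encodes nestin, a filament protein of precursor cells. Desmin, the muscle filament Des, was at 85.4 and vimentin, Vim, at 94.3. A-type lamin, Lmna, stood at 93.3, and the B-type lamins Lmnb1 and Lmnb2 at 19.1 and 20.2. Tubb4a (percentile 15.3), a neuronal beta-tubulin, was lowest, and Tuba8, Synm, Gfap and Prph were not measured.

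The sarcomere genes were measured in larger part than the array as a whole (40 of 52) and spread over nearly the whole range, with a median of 76.5 on both arrays together (73.4 and 77.2 on arrays 1 and 2), 10 in the top 10% and 5 in the bottom 25%. This median moved to 54.1 when each gene was represented by its dimmest measured probe. Actc1, Myh3 and Tpm3 (percentiles 98.9, 97.3 and 96.7) led; Myh3 is the embryonic myosin heavy chain and Tpm3 a slow-muscle and cytoskeletal tropomyosin. Of the other myosin heavy chains, the perinatal Myh8 was at 46.6 and the fast adult Myh1 and Myh4 at 35.7 and 31.4, distances that are small beside the range between probes of a single gene. The fast adult Myh2 was not well above background in any file (14 to 25.5), and the slow Myh7 was so in 3 of 4. Of the troponins, the fast troponin C Tnnc2, the slow troponin T Tnnt1 and the fast troponin I Tnni2 stood at 95.8, 94.1 and 94.1. Titin, Ttn, with 4 of 4 probes measured, was at 89 and nebulin, Neb, with 3 of 3, at 77.3. Creatine kinase Ckm and myoglobin Mb, both abundant in adult muscle, were at 48 and 31.2. Smpx (percentile 0.9), a small stretch-linked muscle protein, was lowest, 1 of its 2 probes being measured.

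**Figure D3:**
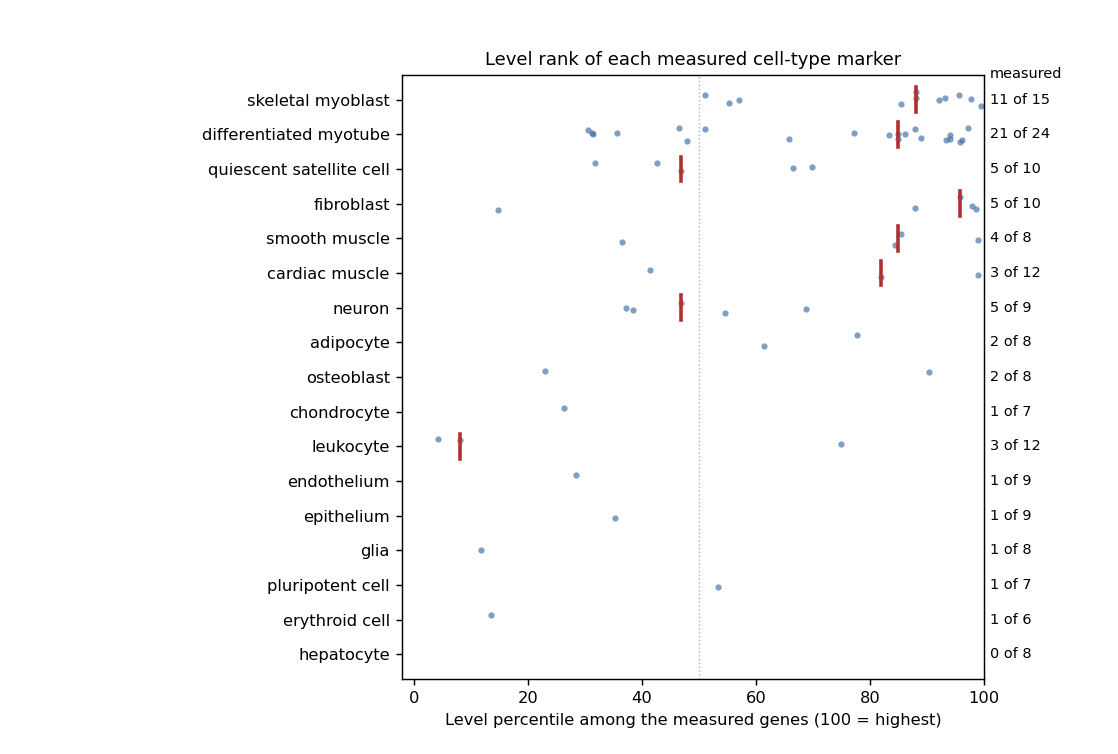
Level percentile of each measured marker of 17 cell types; blue points are genes, red bars medians where at least 3 were measured, and the right column counts measured markers of those on the array. Skeletal myoblast and myotube markers were measured in 11 of 15 and 21 of 24 cases, and hepatocyte markers in none of 8.

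The labelled cell type was checked against its markers. Of 15 skeletal myoblast markers, 11 were measured, with a median percentile of 88.1 (88.1 on array 1 and 91.5 on array 2) and none in the bottom 25%. Itga7, the laminin-binding integrin of muscle cells, gave 34793, 35836, 26916 and 29144 in replicates 1 to 4, a level of 3.96 ± 0.24 (percentile 99.5). The acetylcholine receptor subunit Chrna1 stood at 3.20 ± 0.07 (percentile 97.8) and its scaffold Rapsn at 2.13 ± 0.13 (percentile 93.2). The muscle cadherin Cdh15 was at 1.96 ± 0.18 (percentile 92.2).

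Myogenin and MyoD were both measured. Myog gave 12557 and 10521 on array 1 and 15122 and 13939 on array 2, and Myod1 3962 and 3904 on array 1 and 6542 and 7131 on array 2. The levels were 2.67 ± 0.43 and 1.36 ± 0.75, with array 2 the higher for both under each scaling tried. Des, Six4, the receptor kinase Musk and the receptor subunit Chrnb1 were further measured markers, at percentiles 85.4, 57.1, 55.3 and 51.1. The 4 not measured were Myf5 (27.3 to 51.0 in the 4 files) and Msc, well above background in no file, and Sdc4 and Met in 3 of 4. The stretch before the Chrna1 start (chr2:73580339-73580498, minus strand, GRCm38.p6) is shown because E-boxes are the sites of the myogenic factors; CAGCTG, which reads the same on both strands, is in capitals.
Chrna1: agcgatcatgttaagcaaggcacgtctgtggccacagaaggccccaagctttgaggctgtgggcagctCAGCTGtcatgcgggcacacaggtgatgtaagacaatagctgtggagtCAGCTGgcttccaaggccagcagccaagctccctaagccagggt
It holds CAGCTG at 2 places, 92 and 44 bases before the start. In 250 bases, 11.6% of all promoters in the table held at least 1 CAGCTG and 0.949% held 2 or more. Of the 7 measured myoblast markers with an entry, 3 held at least 1.

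Markers of differentiated myotubes were also mostly measured: 21 of 24 passed the rule, with a median of 85.0 (82.2 on array 1, 83.5 on array 2) and 6 in the top 10%. This median was 71.4 with the dimmest measured probe of each gene. Myh3, Myl1 and Tnnc2 led at 97.3, 96.1 and 95.8. Both fusion proteins that act only in muscle were measured, Mymk with 3592, 6040, 3222 and 5167 in replicates 1 to 4 (percentile 86.1) and Mymx with 4909, 3113, 4048 and 2693 (percentile 83.4). Array 2 was higher for Mymk and array 1 for Mymx, under each scaling tried. Mylpf, the regulatory light chain of fast fibres, was lowest at 30.5 with 1 of 2 probes measured, and Myh2, Myh7 and Actn2 were not measured. In RNA from whole cultures, fewer cells of a type and less RNA per cell cannot be told apart, so the part of the culture that had begun to differentiate was not determined.

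Quiescent satellite cell markers were measured in 5 of 10 cases at a median of 46.8, and all 5 were higher on array 1 (by a median of 0.34, against 44.8% of all genes higher there by any amount), or 4 of 5 with normexp background correction or a correction for probe GC content. Cd34 and Hey1 were highest at 69.9 and 66.5, followed by Spry1, Heyl and Foxc1. Pax7, which marks satellite cells, gave 43.5 to 70.1 and was well above background in no file, as were Pax3, Calcr, Cxcr4 and Sdc3.

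Of 10 fibroblast markers 5 were measured, at a median of 95.9 (97.2 and 94.5 on arrays 1 and 2), with Col1a2 at 98.7, Col3a1 at 97.9, Dcn at 95.9, Col1a1 at 87.9 and Fap at 14.8. Pdgfra, Thy1, Lum, Pi16 and Dpt were not measured. With so few genes the median moved to 88.7 with detection in 3 of 4 files, 88.6 without replicate 2 and 89 with scan 2 alone, where that of the skeletal myoblast markers was 88.9, 88.7 and 89.4. Matrix genes are also made by myoblasts, so this list does not separate the 2 cell types. The 4 measured of 8 smooth muscle markers were Acta2, Des, Smtn at 84.4 and Tagln at 36.6, while Myh11, Cnn1, Lmod1 and Synpo2 were not. The 3 measured of 12 cardiac markers were Actc1, Tnnt2 at 81.9 and Gata4 at 41.4; Nkx2-5, Tbx20, Myh6 and the natriuretic peptides were well above background in no file.

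Of 9 neuronal markers 5 were measured, at a median of 46.9: Snap25 at 68.8, Gap43 at 54.6, Nefl at 46.9, Stmn2 at 38.5 and Syp at 37.3. Rbfox3, Syt1, Nefm and Elavl3 were not measured. Adipocyte markers were Lpl at 77.7 and Pparg at 61.5 (2 of 8), with Adipoq, Plin1 and Fabp4 well above background in no file. Osteoblast markers were Spp1, with 6714, 7004, 5431 and 6224 (percentile 90.3), and Phex at 23 (2 of 8).

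Most of the remaining cell types had 1 to 3 measured markers each. Among them were Itgam at 74.9, Csf1r at 8.1 and Cd14 at 4.3 for leukocytes (3 of 12), Kdr at 28.5 for endothelium (1 of 9), Krt19 at 35.2 for epithelium (1 of 9), Sox9 at 26.4 for cartilage (1 of 7), Nanog at 53.3 for pluripotent cells (1 of 7) and Epor at 13.6 for erythroid cells (1 of 6). None of 8 hepatocyte markers was measured. The defining markers Ptprc, Pecam1, Cdh5, Epcam, Cdh1, Gfap, Mbp, Pou5f1 and Sox2 were well above background in no file. Itgam and Nanog each rested on 1 of 3 probes: Itgam at 1739 to 2762 against 15 to 42 for the unmarked spots of its other probes, and Nanog at 627 to 1284 against 12 to 35. Of the other Itgam probes, 1 was well above background in 2 files, and it had no unmarked spot in replicates 2 and 4.

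Of the 54 myogenic and related transcription factors on the array, 36 were measured at a median of 55.8 (58.0 and 54.6 on arrays 1 and 2). Myog and Eya1, a phosphatase and transcriptional co-activator, were highest (percentiles 95.7 and 95). Mef2d and Mef2a, which act with the myogenic factors, were at 64.8 and 63.6, and Mef2c was well above background in 2 files. The inhibitors of differentiation Id1, Id2 and Id3 were at 62, 41.8 and 67.5. Serum response factor, Srf, stood at 41 and its co-activators Mrtfa and Mrtfb at 54.5 and 61.2. Myf6, the late member of the MyoD family, was at 9, with 210, 177, 229 and 146, close to the detection limit, and Six5 (percentile 0) was lowest.

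Of 59 genes that specify limb and axial position, 22 were measured (37.3%, against 39.8% of all symbols), at a median of only 24.2 and with 11 in the bottom 25%. Meis2, a cofactor of Hox proteins, and Prrx2 were among the highest (percentiles 78.2 and 66.8). Of the 39 Hox genes, 12 were measured at a median of 16.6. Hoxc6 was the brightest, with 1993 and 1824 on array 1 and 940 and 842 on array 2 (percentile 62.9), followed by Hoxa11 at 36.1 and Hoxa9 at 33.3. The measured Hox genes belonged to the A and C clusters, with Hoxb9 at 5.2 and Hoxb13 at 14.7 from the B cluster, and no Hoxd gene was measured. Hoxc13 was lowest of the list at 1.8. Hoxc9 was well above background in 3 files, with 1020 and 681 on array 1 and 147 and 74.4 on array 2.

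Fusion and adhesion genes had a median of 70.6 (19 of 31), led by Itga7, Cd81 and Cdh15 (percentiles 99.5, 98 and 92.2). That median was 57.3 with the median measured probe of each gene and 58.5 with the dimmest. Cd81 is a tetraspanin, as is Cd9 at 90.6. The adhesion molecules Ncam1, Vcam1 and Cdh2 were at 85.9, 82.4 and 55.6, and Kirrel3 (percentile 6.4) was lowest. Neuromuscular junction genes had a median of 52.7 (15 of 20). Chrna1, Rapsn and Chrnd (percentiles 97.8, 93.2 and 87.8) were highest and Erbb2 (percentile 15.8) lowest. The fetal receptor subunit Chrng stood at 46.9 while the adult Chrne was not measured, nor were Ache, Colq, Sntb1 and Erbb3. Excitation and calcium handling genes had a median of 63.5 (23 of 29), with Calm2 and Fkbp1a, genes not confined to muscle, among the highest (percentiles 94 and 91.8). Of the muscle genes of this list, the fast calcium pump Atp2a1 was at 75.3, the release channel Ryr1 at 65.8 and the voltage sensor Cacna1s at 63.5. Sln (percentile 6.6), which restrains the pump, was lowest. Dystrophin complex genes had a median of 62.3 (15 of 20), with Lama5 and Sspn among the highest (percentiles 91.8 and 83.7), the sarcoglycans Sgcb, Sgca and Sgce at 77.3, 62.2 and 55.4 and Sgcd (percentile 2.1) lowest. The brightest of 5 probes for Dmd itself was at 13.3 to 43.2 and well above background in no file; Sntb1, Dtna and Pomt2 were also not measured.

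Collagens and their enzymes had a median of 65.9 (25 of 39), with Col1a2, Col3a1 and Col6a1 (percentiles 98.7, 97.9 and 96.2) highest and Col7a1 (percentile 3.2) lowest. The type VI chains Col6a1, Col6a3 and Col6a2 were at 96.2, 87.6 and 65.2, the basement membrane chains Col4a1 and Col4a2 were at 48.2 and 32, and the cartilage chains Col2a1, Col9a1, Col10a1 and Col11a1 were well above background in no file. Matrix glycoproteins had a median of 76.2 (31 of 40), led by Igfbp5, Sparc and Fn1 (percentiles 99.7, 98.8 and 98.1), with Ccn5 (percentile 4.7) lowest. Fn1, fibronectin, gave 24850, 20971, 18960 and 14928, and Mgp, an inhibitor of calcification, 20048, 17124, 15489 and 14431. Matrix proteases and inhibitors had a median of 78.0 (23 of 36): the highest were Timp2, Ctsb and Ctsl (percentiles 99.6, 97.5 and 97.5), an inhibitor of metalloproteinases and a pair of lysosomal cathepsins, and Adamts5 (percentile 3.6) was lowest. Of the metalloproteinases, Mmp11, Mmp2 and Mmp14 were at 84.7, 63.8 and 24.3, and Mmp3, Mmp9, Mmp10 and Mmp13 were well above background in no file. Of 26 integrin subunits 12 were measured, at a median of 52.1 (46.0 and 55.7 on arrays 1 and 2). Itga7, Itga6 and Itgam (percentiles 99.5, 84.6 and 74.9) were highest, the last of them a leukocyte subunit that rests on 1 probe, and Itgav (percentile 12.7) was lowest.

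Growth factor receptors were measured in 33 of 53 cases at a median of 43.2, with none in the top 10%. Tgfbr2, Notch3 and Acvr1 (percentiles 80, 78 and 72.1) were highest and Insr (percentile 1.6), the insulin receptor, was lowest with 1 of its 3 probes measured. The IGF receptor Igf1r stood at 47.2, the fibroblast growth factor receptor Fgfr1 at 69.6 and Fgfr4 at 4.9. Growth factors and cytokines had a median of 46.1 (37 of 69), led by Mif, Hdgf and Gdf15 (percentiles 98.1, 87.7 and 84.8). Gdf15 and Fgf21 are both known as stress-induced hormones, and the latter stood at 84.6. Igf1 and Igf2 were at 43.7, with 1 of 5 probes measured, and 33.1, where the files gave 377, 579, 289 and 536. Igf2 is the neighbour of H19 in the imprinted domain. Myostatin, Mstn, was at 16.6 to 30.9 and well above background in no file. Pdgfb (percentile 0.2) was lowest.

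Cell cycle genes stood near the middle of the range, with few in the top 10%. DNA replication genes had a median of 50.8 (32 of 44, none in the top 10%), from Mcm6, Rrm2 and Pcna (percentiles 88.5, 86.6 and 85.7) to Gins1 (percentile 4.1). Mcm6, a subunit of the replicative helicase, gave 9280 and 8156 on array 1 and 3324 and 3297 on array 2, and Pcna, the sliding clamp, 6427 and 5319 against 3319 and 2745. Of the 32, 23 were higher on array 1 (23 to 25 under the other scalings, 20 with a correction for probe GC content), against 44.8% of all genes (43.8% to 58.2%). Mitosis genes had a median of 58.1 (36 of 45, none in the top 10%), from Pttg1, Birc5 and Cdc25b (percentiles 84.2, 83.2 and 82.8) to Cks2 (percentile 3.5). Mki67, the proliferation marker, was at 58.2 and 22 of the 36 were higher on array 1 (22 to 24 under the other scalings). G1 regulators had a median of 57.0 (21 of 30). Ccnd3, Cdkn1a and Cdk4 (percentiles 95.3, 91.9 and 91.3) were highest, the first a D-type cyclin and the second the inhibitor p21, known to rise when myoblasts leave the cycle. Cdkn1a, on 1 of 3 probes, gave 6960 and 5996 on array 1 and 9545 and 8374 on array 2. Trp53 (percentile 5.8), which encodes p53, was lowest, and Cdkn2a was at 14.4 to 27.8 and well above background in no file.

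Protein quality control genes had high medians. Proteasome genes had a median of 85.3 (34 of 36, none in the bottom 25%), led by Psmc3, Psmb5 and Psmb3 (percentiles 98.1, 97.5 and 96.8), with Psmb10 (percentile 32.8) lowest; Psmb10 belongs to the immunoproteasome, as do Psmb8 and Psmb9, the ones not measured. Chaperones had a median of 88.4 (36 of 41), led by Ppia, Hspb1 and Hsp90ab1 (percentiles 99.9, 99.1 and 99.1). The small heat shock protein Cryab, abundant in muscle, was at 96, and Dnajb4 (percentile 2.3) was lowest. Cct6b, Hspa1a, Hspa1l, Hspb3 and Hspb7 were not measured. Spliceosome and RNA-binding genes had a median of 75 (47 of 50), from Hnrnpa3, Hnrnpc and Hnrnpf (percentiles 97.5, 93.7 and 93.6) to Sf3b1 (percentile 2.7), without U2af2, Ptbp2 and Rbm38. RNA polymerase II and its general factors had a median of 57.6 (24 of 27), from Taf10, Polr2l and Polr2k (percentiles 91, 88.6 and 87.5) to Polr2a (percentile 8.9), the largest subunit of the enzyme; Taf1, Taf5 and Taf7 were not measured.

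Antioxidant and iron genes had a median of 78.6 (37 of 41), led by Fth1, Ftl1 and Sod1 (percentiles 99.8, 96.5 and 96.1), where Fth1 and Ftl1 encode the 2 ferritin chains. The transferrin receptor Tfrc, through which cells take up iron, was lowest at 2.3, with 1 of 3 probes measured, and Gpx2, Gpx7, Gclm and Mt3 were not measured. Sterol synthesis genes were widely detected (24 of 27) but stood at a median of 45.9, with none in the top 10% and 9 in the bottom 25%. Msmo1, Pmvk and Fdps (percentiles 82.8, 78.7 and 77.9) were highest. Cyp51, which removes a methyl group from lanosterol, gave 101, 124, 103 and 132 (percentile 0.4), on its only probe and next to the detection limit. Lss and Hsd17b7 were not measured. Hmgcs1, an early enzyme of the pathway, was at 69.3.

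Interferon response genes were measured in 17 of 38 cases (44.7%) at a median of 41.2 (47.5 and 35.9 on arrays 1 and 2). B2m, Ifi27 and H2-K1 (percentiles 94.6, 89.7 and 87.1) were highest and Isg15 (percentile 2.8) was lowest. The antiviral effectors Ifit1, Ifit3, Mx1, Mx2, Oas1a, Oasl2, Rsad2 and Usp18, and the transcription factor Irf7, were well above background in no file. MicroRNA machinery genes had a median of 36.4 (43.2 and 36.8 on arrays 1 and 2; 15 of 20), from Ran, Tarbp2 and Ago2 (percentiles 97.6, 79.7 and 66.6) to Tnrc6b (percentile 1.8). Argonaute 2, Ago2, with 4 of 4 probes measured, was at 66.6, Ago4 at 1.9, and Ago1, Ago3, Lin28a, Lin28b and Cnot7 were not measured in all files. Clock genes had a median of 42.4 (12 of 21), from Csnk1d, Tef and Dbp (percentiles 91.9, 83.8 and 80.3) to Clock (percentile 18.8). Nuclear receptors had a median of 49.2 (22 of 45), from Rarg, Nr1h2 and Rxrb (percentiles 86.4, 86.4 and 83) to Ppara (percentile 4.1).

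Imprinted genes were measured in 13 of 31 cases at a median of 46.2, from H19, Gnas and Peg3 (percentiles 100, 96.5 and 73.8) to Plagl1 (percentile 2.7). Apart from H19 and Gnas none was in the top 10%, and Meg3, Dlk1, Peg10, Grb10, Nnat and Kcnq1ot1 were well above background in no file. Of the X inactivation and Y-linked list, Ddx3x, Kdm5c, Xist and Eif2s3x were measured at 80.3, 71.4, 61.5 and 45.8. Xist, the RNA that coats the inactive X, was measured on both its probes, at 1144 to 1388 and 708 to 1002. Of the Y-linked genes Ddx3y, Uty, Kdm5d, Eif2s3y, Zfy1, Zfy2 and Sry, none was well above background in any file. Of the 11 protein-coding genes of the Y chromosome, which include those just named, 1 was measured: Uba1y, which was outside this list. Uba1y gave 416, 280, 233 and 177 in replicates 1 to 4 (percentile 18.7) on 1 probe, while its other probe was well above background in no file. Potassium and sodium channels were the list with the smallest measured share among the pathways (7 of 40, 17.5%), at a median of 34.2, from Kcna4 (percentile 76.7), with Scn8a at 50.5, to Scn4a (percentile 13.3), the sodium channel of adult muscle.

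Gene families of other tissues served as a floor for the detection rule. Of 1074 olfactory receptors on the array 6 were measured (0.559%), of 257 vomeronasal receptors 2 (0.778%), of 38 taste receptors 1 and of 42 beta-defensins 1 (2.38%). Among families with wider use, 7.45% of 94 potassium channel genes, 8.51% of 94 cytochrome P450 genes, 34.9% of 375 solute carriers, 40.2% of 376 zinc finger genes named Zfp, 63.8% of 69 Rab GTPases, 75.7% of 37 Ddx helicases and 88% of 50 proteasome subunits were measured. The measured solute carriers had a median percentile of 39.3 and the measured Zfp genes 26.0. Of 19 Wnt ligands only Wnt10a was measured, against 5 of 10 Frizzled receptors (Fzd1, Fzd2, Fzd4, Fzd6 and Fzd7). Chemokines were Ccl2, Ccl7, Ccl9, Cx3cl1, Cxcl1, Cxcl5, Cxcl12 and Cxcl13 (8 of 33). By chromosome, the measured share of protein-coding genes ran from 35.1% on chromosome 7 to 52.0% on chromosome 15 among the autosomes, and was 33.2% of 798 genes on the X.

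**Figure D4:**
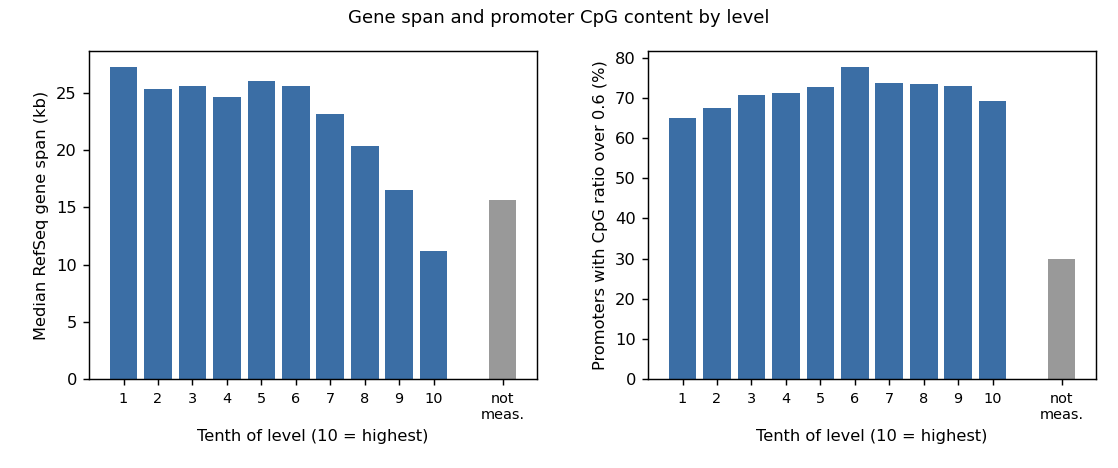
Median RefSeq gene span in kb (left) and share of promoters with a CpG ratio over 0.6 in percent (right) by level of the 8704 measured protein-coding genes in 10 bins of equal size, with genes on the array that were not measured in grey. The span falls over the upper bins to 11200 bases, and the promoter share differs more between measured and unmeasured genes than among the bins.

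Gene span was shorter in the upper level bins, and TATAAA near the start was found in a larger share of the highest bin than of any other. The median span of the gene in RefSeq was 27245 bases in the lowest of 10 level bins of the 8704 measured protein-coding genes and stayed between 23127 and 26060 in bins 2 to 7, then was 20383, 16501 and 11200 in bins 8, 9 and 10. For genes on the array that were not measured it was 15679. Of the measured genes 80.9% had a promoter in the RefSeq table, where 250 bases before the first listed start were read. The ratio of observed to expected CpG was over 0.6 in 71.5% of these promoters against 29.9% of the unmeasured genes, and in 65% to 77.7% of each bin. TATAAA on the gene's strand, from 40 to 20 bases before the start, was found in 2.40% of bin 10 (17 of 707 promoters, exact 95% interval 1.41% to 3.82%), in 0.426% to 1.32% of each other bin, in 4.01% of the unmeasured genes and in 2.73% of all 17491. CCAAT, on either strand, was in 36.7% of measured and 35.6% of unmeasured genes.

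Ribosomal protein messages are known to begin with a run of pyrimidines, through which their translation is controlled. A run of 8 or more pyrimidines from 10 bases before to 15 bases after the start was found in 21 of 60 ribosomal protein genes with an entry, in 4 of 33 translation factors and in 9.27% of all promoters in the table. The MEF2 box, searched on both strands, was in 7 of 31 sarcomere genes (Myh1, Myh4, Myh8, Ttn, Myom3, Myoz2 and Klhl41) and in 2.79% of all promoters; CAGCTG was in 12 of the 31, and in 11.6% of all.

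**Figure D5:**
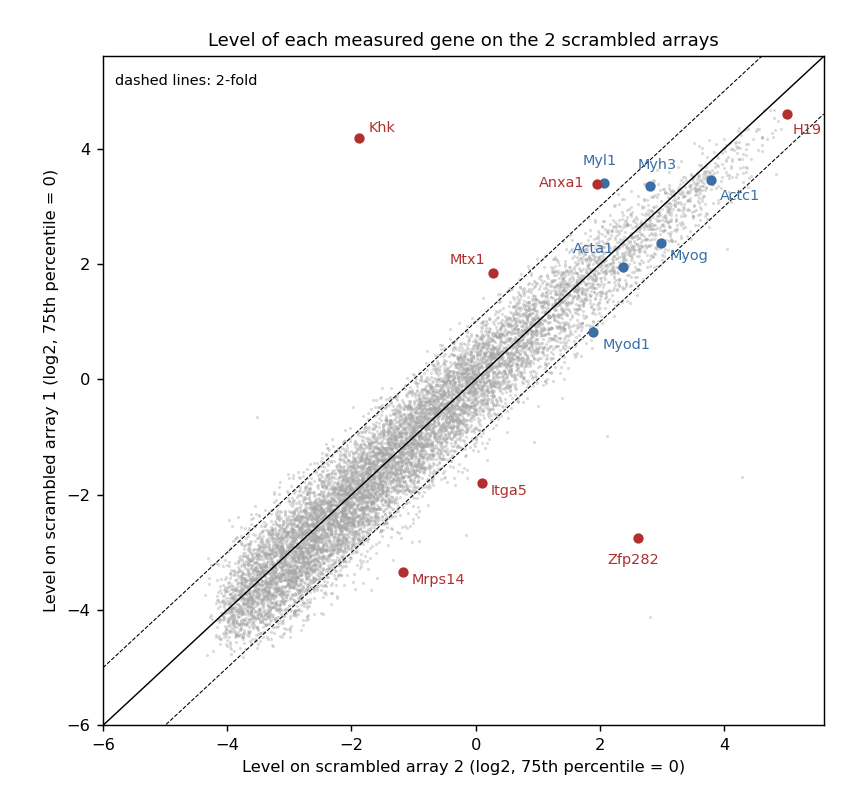
Level of each of the 11306 measured genes on scrambled array 1 against array 2 (log2 relative to the 75th percentile); the solid line is equality and the dashed lines mark a 2-fold difference. Muscle genes and H19 are named beside genes among the largest differences; Khk and Zfp282 lie farthest from the line among genes with a RefSeq symbol, and a few unnamed grey points lie as far.

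The arrays differed by over 2-fold for 485 of 11306 genes (4.29%), of which 142 were higher on array 1 (1.26%) and 343 on array 2 (3.03%). This split rests on the scaling. It was 365 and 138 with the 75th percentile over all probes, under which the median of array 1 minus array 2 was 0.11 in place of -0.07. The split was 219 and 212 with quantile normalisation and 55 and 156 with normexp. In the submitters' value table it was 250 and 226, of 10582 genes. The SD of the difference over all genes was 0.51 on the log2 scale. Between the 2 scans of array 1, 41 genes were over 2-fold apart, and 30 between those of array 2. On the scaling used throughout, the difference was over 2-fold in each of both scans for 92 genes higher on array 1 and 240 higher on array 2, counts that were not redone under the other scalings. The difference went with base composition: over the 11306 probes of 60 bases, array 1 minus array 2 correlated with the GC content of the probe at -0.354 (Spearman, across genes that share 2 arrays), while the level correlated with it at -0.004. Genes over 2-fold higher on array 1 had a median probe GC of 36.7% and those over 2-fold higher on array 2 of 45%, against 41.7% for all. Less the median difference at each GC content, a correction chosen after seeing the data, 340 genes were over 2-fold apart, 128 higher on array 1 and 212 on array 2.

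Among genes with a RefSeq symbol, the largest difference in each direction belonged to a gene with 1 measured probe of 2. Khk, which phosphorylates fructose, gave 30853 and 52872 on array 1 and 515 and 491 on array 2, and Zfp282, a zinc finger gene, 379 and 284 on array 1 and 10024 and 12806 on array 2. For both genes the arrays lay much farther apart than the 2 scans of an array. Mtx1, a mitochondrial import protein, was higher on array 1 only through replicate 3 (2941, 2301, 21625 and 2162 in replicates 1 to 4). Anxa1, an annexin, gave 27549 and 19726 against 8440 and 6115, a difference of 1.43. The other 7 of the 10 largest toward array 1 were Scn4a, Zfp943, Adig, Cggbp1, Mettl3, Ptpn13 and Zfp81, at 1.35 to 1.54. Toward array 2 the others were Mrps14 at -2.17, Mrpl53, Slc35c2, Itga5, Eif4a3, C1qtnf6, Dtx3, Scd3 and Ube2m at -1.58. Among the muscle genes the embryonic and fast chains Myl1 and Myh3 were higher on array 1: Myl1 gave 28235 and 19687 against 9224 and 6500 and Myh3 25303 and 20293 against 13381 and 12534. Of the 40 sarcomere genes, 24 were higher on array 1 and 16 on array 2 on the scaling used throughout (44.8% and 55.2% of all genes). By over 2-fold, 3 were higher on array 1 (1.26% of all genes) and none on array 2 (3.03%). These 2 counts were 2 to 4 and none under the other scalings (of 41 genes in the submitters' value table), and 5 and 1 with the GC correction. Of the 11 myoblast markers, 10 were higher on array 2 (55.2% of all genes were), by a median difference of only -0.25, and 2 were so by over 2-fold (3.03% of all genes). With the 75th percentile over all probes these counts were 8 (41.8% of all genes) and 0 (138 of 11306 genes). The median was then -0.07, against 0.11 for all genes. Under the other scalings 9 to 11 were higher on array 2 (47.2% to 56.2% of all genes), 1 or 2 of them by over 2-fold. With the GC correction the counts were 8 (49.9% of all genes) and 1, and the median was -0.39.

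The detection limit is soft at the array level. The dimmest named genes inside it were Trim7, with a mean signal of 89.2, Wwp1 at 92.8, Six5 at 100, Rhoh at 102 and Tmem205 at 103. The brightest of those well above background in 3 files were N6amt1, Rnf185, Hoxc9, Gdap10 and Zfp770, at mean signals of 1030, 972, 481, 273 and 255. Rnf185 gave 2060 and 1590 on array 1 and 161 and 76.2 on array 2, and N6amt1 3710 in replicate 3 and 98.6 to 181 in the others. A further 293 named genes were well above background in both files of array 1 and in neither of array 2, with a median signal of 128 there, and 113 the other way, at 147. A few of these, chosen after their values were seen, were bright: Slc15a1, a peptide transporter, gave 33937 and 37864 on array 2 and 24 and 16 on array 1, and Gp2, a glycoprotein of the pancreas, 7424 and 8831 on array 1 and 30 and 16 on array 2. Of the 11306 genes, 93.4% were also well above background in all 6 files of the mimic-transfected cells, and 30 in none of them.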

How the data were processed

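RNA of the 10 samples was labelled with Cy3 from 150 ng and hybridised to 1-colour Agilent arrays, per the labels' protocols. The deposited scanner files hold intensity values, and the processed signal used here was made by Agilent Feature Extraction, given as 10.7.3.1 in the submitters' processing notes and as 12.0.0.7 per the file headers. The software subtracted background and marked spots above it and outlier spots. Probe coordinates are on mm9 per the file headers.

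Control and outlier spots were left out, spots of a probe were averaged, and log2 signals were scaled per file to the 75th percentile. RefSeq symbols came through accessions (28020 probes), else through the name in the files (3423) or a synonym held by a single gene (295), and 23943 probes got none. Precision is limited by the 2 array positions. The genes named are the 25 highest, in each list the 3 highest, the lowest and any unmeasured where 5 or fewer, all measured markers, the 10 largest array differences in each direction and the 5 genes on each side of the detection limit. Other names were chosen after their values were seen. Some genes that this rule names are not reported here. Members and lists were chosen with earlier results of these data known. Alternatives used other detection rules, probes, scans, scaling, the submitters' value table and normexp with an offset of 50 (limma 3.58.1 in R 4.3.3). The scripts (Python 3.11.15, numpy 2.4.6, pandas 2.3.3) were tested on simulated data.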

Additional observations from a re-analysis of the deposited data

Results flagged for a closer look

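Mtx1 stood apart in 1 of 4 scrambled samples. Its level was 3.41 in replicate 3 and 0.28, 0.22 and 0.33 in replicates 1, 2 and 4, and the gap to the nearest other sample was 0.966 of the range, above Dixon's 95% critical value for 4 samples. Replicate 1 shares the array position of replicate 3, so the other scan of that position did not carry the high value. This was 1 of 91 values looked at. The critical value assumes 4 independent samples, but these files are 2 arrays with 2 scans each. Mtx1 was also picked for its array difference of 1.57, which was 0.07 in scan 1 and 3.08 in scan 2. The gene was thus chosen through the same high value, so passing the critical value gives no rate of chance findings. The cause was not tested.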

How the results depend on the processing

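No paired analysis was possible because a single group was described and no difference was tested. Counts of measured genes ran from 8974 (RefSeq symbols only) to 12148 (at least 3 of 4 files), and from 11341 to 11944 with 1 replicate left out. Genes over 2-fold apart between the arrays numbered 211 with normexp, against 485, and 340 to 656 under the other settings but for the 332 apart in each scan; with 1 replicate left out they were 496 to 623. The correction for probe GC content (340 genes), the count in each scan, the counts of list genes by array under each scaling and the start-site alternative were chosen after seeing the data. TATAAA or TATATA anywhere in 250 bases was in 8.63% of the highest level bin, 4.25% to 5.87% of each other bin, 15.2% of the unmeasured genes and 12.4% of all promoters. TATAAA from 40 to 20 bases before any listed start was in 2.4% of the highest bin and 0.568% to 1.68% of each other bin. With genes ranked by their median measured probe, TATAAA in that window before the first listed start was in 1.84% of the highest bin. Protein length was not run, because no protein table was used here, and gene span, also chosen after seeing the data, took its place.

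Median percentiles moved as follows. With detection, scaling and ranking redone on 1 array, in place of ranks on that array among the 11306 genes, they were on array 1 84.7 for skeletal myoblast markers, 60.9 for myogenic factors, 30.3 for position genes, 70.8 for sarcomere, 89.6 for actin, 82.4 for glycolysis and 91.7 for respiratory genes, and on array 2 91.8 for myoblast markers and 89.4 for actin. With the dimmest measured probe they were 90.7 for myoblast markers, 54.1 for sarcomere, 82.0 for actin, 93.8 for ribosomal and 76.5 for glycolysis genes. With the median probe they were 21.2 for position, 70.4 for sarcomere, 85.7 for actin, 96.6 for ribosomal and 84.1 for glycolysis genes. Detection in 3 of 4 files gave 58.9 for myogenic factors, 27.2 for position, 91 for actin and 81.1 for glycolysis genes. Normexp gave 25.2 for position and 89.5 for actin genes, and the submitters' own values gave 23.0 and 89.8. Scan 1 alone gave 25.2 for position and 91.2 for respiratory genes, and scan 2 alone 91.1 for actin and 82.0 for glycolysis. Among RefSeq symbols only, actin, ribosomal, glycolysis and respiratory genes stood at 92.2, 98.3, 88.4 and 92.5. With 1 replicate left out the ranges were 23.7 to 28.4 for position, 90.2 to 90.9 for actin and 81.0 to 86.8 for glycolysis genes. The order of 46 list medians correlated with the reported one at 0.923 (dimmest probe) or above (Spearman). The causes were not tested.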
